A study of Mus musculus with 9 samples.

Results

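The 32 genes described here encode proteins that build ribosomes in the nucleolus or that belong to small nucleolar ribonucleoproteins (snoRNPs), the RNA-protein complexes that modify ribosomal RNA. They were chosen by name, and a gene entered with a probe set (the group of short probes that reads a transcript on the array) that the platform annotation gives to that gene alone. All 32 had such a probe set, out of 18193 genes measured in all, and 22 of them had more than 1. Where a gene had several, the brightest on average was used.

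The RNA was what was precipitated together with Argonaute (AGO), the microRNA-binding protein, from C57BL/6 mouse T cells after 24 h in 1 of 3 cultures. In the syngeneic culture the T cells were kept with C57BL/6 dendritic cells, and in the allogeneic culture with BALB/c dendritic cells, both at 20 T cells per dendritic cell. In the antibody culture they were kept with anti-CD3e and anti-CD28 at 0.1 µg/ml, which stimulate through CD3 of the receptor complex and through CD28; the labels name no dendritic cells there. After culture, cells were incubated with CD11c microbeads, T cells were taken by negative magnetic selection, crosslinked with ultraviolet light and lysed for the AGO precipitation, and each culture was read on 3 arrays, numbered as biological replicates 1 to 3. The labels tie no number to an animal or a culture dish, so the p-values measure the spread between these arrays. Arrays of input RNA were not used here, so a transcript's abundance and its binding to AGO cannot be told apart. In bulk samples such as these, fewer cells of a type and less RNA per cell cannot be told apart either.

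Ribosome production begins when RNA polymerase I copies the ribosomal RNA genes in the nucleolus. Box C/D snoRNPs then methylate the ribosomal RNA and box H/ACA snoRNPs convert selected uridines to pseudouridine, while separate sets of assembly factors cut, fold and export the small and large subunits. Resting T cells make few ribosomes and enlarge this machinery when they are activated, in part through the transcription factor MYC, which binds the E-box CACGTG in many promoters of these genes.

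Because MYC binding to this E-box is a textbook property of the pathway, promoters were searched for it. RefSeq promoter windows (250 bases before to 50 after the start site, mouse build GRCm38.p6) matched 27 of the 32 genes by symbol or gene ID, and CACGTG, which reads the same on both strands, was present in 5 of them (18.5%, exact 95% interval 6.3 to 38.1%). Among all 27025 genes with such a window 8.09% held it. In the 100 bases nearest the start site the share was 14.8% (4 of 27, exact interval 4.19 to 33.7%) against 3.39% of all genes. The 30 bases around each match are given 5′ to 3′ on the gene's strand, with the motif in capitals, to show where it lies in each gene. They come from Nop2 (chr6:125131811-125131840, plus strand, motif starting at −60), Utp20 (chr10:88826765-88826794, minus strand, at 38), Pes1 (chr11:3963965-3963994, plus strand, at 3), Mybbp1a (chr11:72441347-72441376, plus strand, at 41) and Wdr43 (chr17:71616220-71616249, plus strand, at 18), where the start site is position 1.
Nop2: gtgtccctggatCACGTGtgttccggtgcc
Utp20: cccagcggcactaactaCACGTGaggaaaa
Pes1: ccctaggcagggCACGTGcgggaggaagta
Mybbp1a: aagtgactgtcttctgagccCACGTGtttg
Wdr43: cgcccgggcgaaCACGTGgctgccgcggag
A match describes the letters in this window and not a measured binding site.

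Signals are log2 values as deposited, so a difference of 1 is a doubling. Array medians over all probe sets lay between 4.58 and 5.67 and went by replicate number. They were 4.58 to 4.59 in number 1, 5.60 to 5.67 in number 2 and 4.81 to 4.93 in number 3. Of the 288 member values (32 genes on 9 arrays), 8 lay at or under the median of all genes on their array, and they belonged to Polr1b, Ddx56, Rrp12 and Nop16. T cell markers were present on every array: none of the 9 measured lay under the array median, and their mean level ran from 9.48 to 10.91 in syngeneic, 9.64 to 10.82 in allogeneic and 10.26 to 11.22 in antibody arrays. Signals of the 32 genes, like the array medians, went together more by replicate number than by culture. For 30 of the 32 genes the means of the 3 replicate numbers ranged wider than the means of the 3 cultures, with Nop58 and Rrp1b the exceptions, and the median ranges were 1.51 and 0.55. Differences are therefore also given within each number. Between arrays of 1 number, 17.9% to 49% of all genes had exactly equal values, against 14 of 288 comparisons among the 32 genes, and such equality may not mean that a gene's level was the same. Both stimulated cultures were set against the same 3 syngeneic arrays, so their values stand side by side and are not independent of each other.

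Antibody culture against syngeneic culture asked how the ribosome-building genes differed after stimulation with the antibodies. The syngeneic culture held dendritic cells and the labels name none in the antibody culture. Antibody stimulation and the lack of dendritic cells therefore cannot be told apart here. All 32 genes had a higher mean signal in the antibody arrays, where 48.5% of all genes did, with a median difference of 0.53 (1.45-fold) against 0.00 for all genes. The differences ran from 0.07 for Pes1 to 1.10 for Nop58. Within replicate numbers 1, 2 and 3, 30, 31 and 28 of the 32 were higher, with median differences of 0.47, 0.44 and 0.42; the shares among all genes were 32.9%, 42.2% and 34.3%. In all 3 numbers 25 were higher, against 7.8% of all genes, and none was lower in all 3, against 9.15% of all genes. The 7 others, read like the rest by their brightest probe sets, were Polr1a, Polr1c, Nop10, Rrp12, Pes1, Nop16 and Rrs1.

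None of these differences passed the test over all genes. In limma without a replicate term 0 of 18193 genes (0%) had an adjusted p under 0.05; 156 genes, among them 1 of the 32 (Nop58), had an unadjusted p under 0.05. With the replicate number as a fixed block 0 genes passed either, and 1236 genes, 11 of the 32 among them, had an unadjusted p under 0.05; on the higher side that was 2.23% of all genes. With the number as a random block limma called 30 genes (0.165%), of which Nop58 alone was among the 32. Leaving out single arrays without the block moved the median difference by over 1.5 times for syngeneic replicate 2 (to 0.34), syngeneic replicate 3 (to 0.85) and antibody replicate 3 (to 0.32); with the block kept it lay between 0.38 and 0.62.

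**Figure D1:**
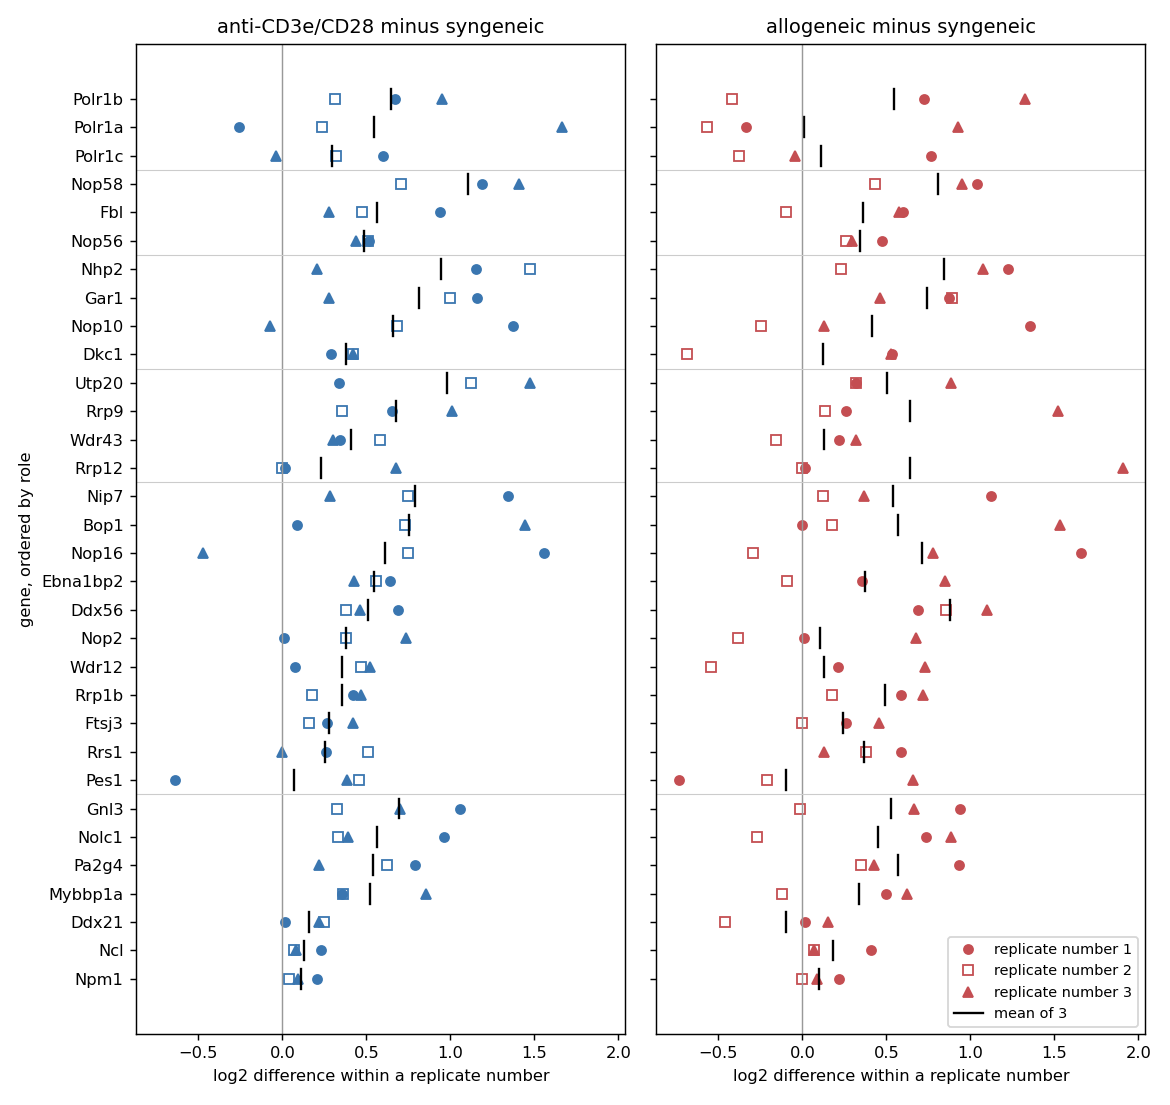
Log2 difference of each of the 32 genes (grouped by role) within replicate numbers 1, 2 and 3, for the antibody and the allogeneic culture against the syngeneic culture; black bars give the mean of the 3 numbers. In the antibody culture 30, 31 and 28 genes lie above 0; in the allogeneic culture 29, 13 and 31 do.

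Allogeneic culture against syngeneic culture asked the same after contact with dendritic cells of another strain. Here 30 of the 32 genes had a higher mean, against 56% of all genes. A lower mean was found for 41.7% of all genes and for 2 of the 32, Pes1 and Ddx21 at −0.10 each. Their other probe sets were higher, by 0.19 for Pes1 (mean signal 4.52) and 0.03 for Ddx21 (mean signal 10.03). The median difference was 0.39 (1.31-fold), against 0.03 for all genes. The replicate numbers differed: 29 and 31 genes were higher in numbers 1 and 3, with medians of 0.52 and 0.66, but 13 were higher and 16 lower in number 2, with a median of −0.01. Among all genes 49.7% were higher and 32.4% lower in number 2, and in numbers 1 and 3 the higher shares were 32.2% and 37.7%. In all 3 numbers 12 genes were higher, against 7.29% of all genes.

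In limma 0 of 18193 genes (0%) had an adjusted p under 0.05 in this comparison, with 27 genes and 0 of the 32 at an unadjusted p under 0.05. With the replicate block 0 genes were called again, 825 genes had an unadjusted p under 0.05, and 8 of the 32 did, all higher, where 2.33% of all genes were. The random block called 1 gene (0.0055%), none of the 32. The median depended on single arrays. Without the block it was −0.06 without allogeneic replicate 3 (15 genes higher), 0.20 without syngeneic replicate 2, 0.71 without syngeneic replicate 3 and 0.74 without allogeneic replicate 2. With the block kept it was 0.25 without allogeneic replicate 3 and 0.61 without allogeneic replicate 2. Without all arrays of number 1, 2 or 3 it was 0.25, 0.60 and 0.22.

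**Figure D2:**
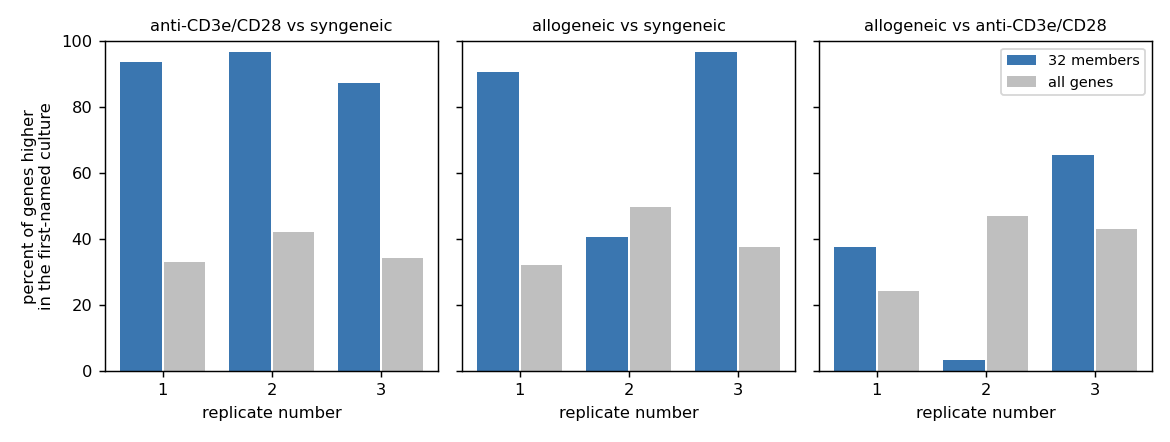
Bars give the percent of the 32 genes (blue) and of all 18193 genes (grey) with a higher signal in the first-named culture, for each comparison and replicate number; exactly equal values count as not higher. In number 2 the allogeneic culture had 13 of 32 genes above the syngeneic and 1 above the antibody culture.

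The largest antibody difference among the 32 belonged to a box C/D snoRNP protein. Nop58, a core protein of these complexes whose gene hosts snoRNAs in its introns, had signals of 9.69, 10.47 and 10.42 in syngeneic replicates 1 to 3. It reached 10.73, 10.91 and 11.37 in the allogeneic and 10.88, 11.18 and 11.83 in the antibody arrays. Every stimulated array was above every syngeneic array. Groups that did not overlap on the higher side were found for 0.412% of all genes in the antibody and 0.192% in the allogeneic comparison, and for Nop58 and Rrp1b alone among the 32 in each. The Nop58 difference was 1.10 ± 0.40 (SE, n = 3 against 3) in antibody culture, with a limma adjusted p = 1 without a block, 0.677 with the fixed block and 0.0290 with the random block. In allogeneic culture it was 0.81 ± 0.40, with adjusted p of 1, 0.709 and 0.284 in the same 3 limma fits.

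Nop56, the partner of Nop58 in the complex, had 11.77, 11.09 and 11.28 in syngeneic, 12.24, 11.35 and 11.58 in allogeneic and 12.28, 11.60 and 11.72 in antibody arrays. On this brightest probe set both stimulated arrays were above the syngeneic array of their number each time. The 3 groups overlapped even so, because number 1 was high in every culture. The mean differences were 0.49 ± 0.34 in antibody and 0.34 ± 0.34 in allogeneic culture. Like every SE after ± here, these come from the fit without a block and include the spread between replicate numbers. With the fixed block the Nop56 SE was 0.07, with limma adjusted p of 0.677 (antibody) and 0.709 (allogeneic). On its other probe set, with a mean signal of 9.89, Nop56 had 8.96 in allogeneic and 9.19 in syngeneic replicate 2. The other stimulated arrays were above their syngeneic partner on that set. Fibrillarin (Fbl), the methyltransferase of these particles, had 10.51, 9.58 and 11.21 in syngeneic, 11.11, 9.49 and 11.79 in allogeneic and 11.45, 10.06 and 11.49 in antibody arrays. It was higher in all 3 numbers of the antibody culture (0.94, 0.48 and 0.28) and in numbers 1 and 3 of the allogeneic culture, with −0.10 in number 2.

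The 4 box H/ACA snoRNP proteins had the highest median of the 6 role groups in antibody culture, 0.74, and 0.58 in allogeneic culture. Gar1, a small subunit of the particle, had 11.19, 9.73 and 10.73 in syngeneic, 12.06, 10.62 and 11.19 in allogeneic and 12.35, 10.73 and 11.01 in antibody arrays. It was above its syngeneic partner in every number of both cultures, by 0.81 ± 0.53 (antibody) and 0.74 ± 0.53 (allogeneic) on average, and number 1 was the highest in each culture. Nhp2, which holds the guide RNA in the particle, had 10.05, 8.57 and 10.44 in syngeneic, 11.27, 8.80 and 11.52 in allogeneic and 11.20, 10.04 and 10.65 in antibody arrays. The antibody difference was 0.94 ± 0.71 and the allogeneic one 0.84 ± 0.71. The 2 cultures parted in number 2, where antibody exceeded syngeneic by 1.47 and allogeneic by 0.23.

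Dkc1 (dyskerin), the pseudouridine synthase of the particle and also a part of telomerase, had the smallest antibody difference of the group, 0.38 ± 0.73. Its signals were 9.76, 9.15 and 10.86 in syngeneic, 10.29, 8.46 and 11.38 in allogeneic and 10.04, 9.57 and 11.28 in antibody arrays. In allogeneic culture it was higher by 0.53 in numbers 1 and 3 but differed by −0.69 in number 2, the lowest value of any of the 32 there. All 3 Dkc1 probe sets were higher in every number of the antibody culture. The rank in number 2 holds for the brightest set only, and the antibody rank does not hold for every set. The other sets, with mean signals of 10.08 and 9.79, differed by 1.05 and 0.49 in antibody culture. In number 2 their allogeneic signals were 9.28 and 9.91, against 9.40 and 10.03 in syngeneic culture. Nop10, the fourth subunit, differed by 0.66 ± 0.61 in antibody and 0.41 ± 0.61 in allogeneic culture, with most of both in number 1 (1.37 and 1.36).

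**Figure D3:**
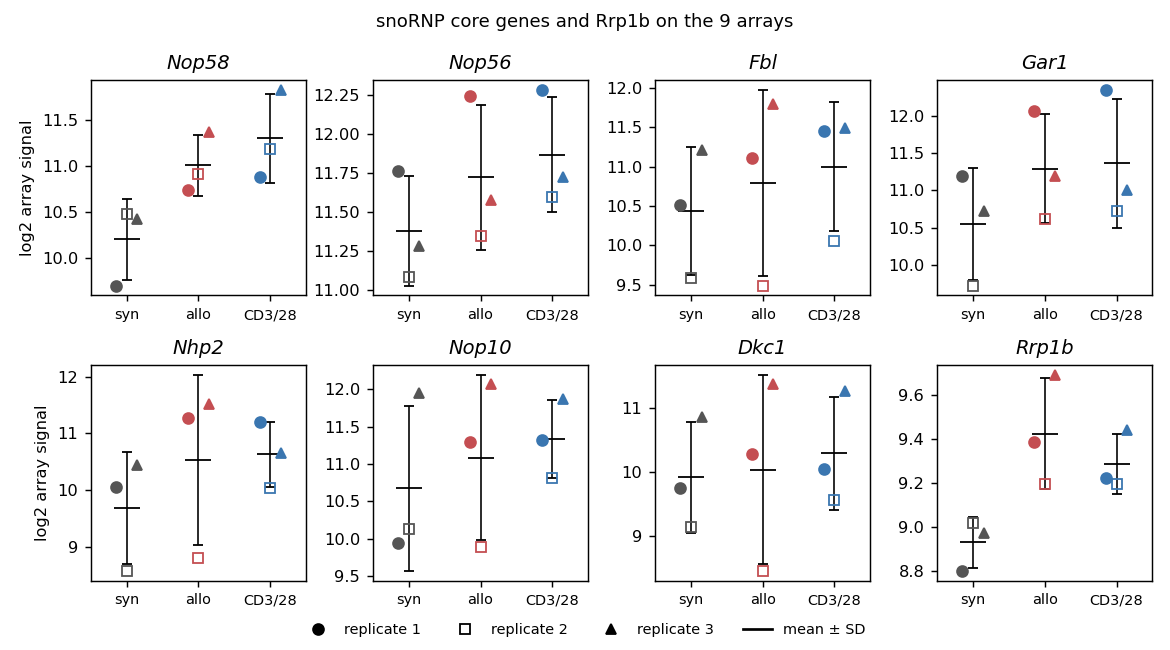
Log2 signal of the 7 snoRNP core genes and Rrp1b on each of the 9 arrays; symbols mark replicate numbers 1 to 3, and bars give the mean ± SD of 3 arrays per culture. For Nop58 and Rrp1b all stimulated arrays lie above all syngeneic arrays, and for the others the groups overlap.

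Among the RNA polymerase I subunits the group median was 0.55 in antibody and 0.11 in allogeneic culture. Polr1a, the largest and catalytic subunit, had 8.93, 8.19 and 8.59 in syngeneic, 8.60, 7.62 and 9.52 in allogeneic and 8.67, 8.42 and 10.25 in antibody arrays. Its antibody difference of 0.55 ± 0.66 came mostly from number 3 (1.66), with −0.26 in number 1. Of its 5 probe sets 3 were higher, and the others, with mean signals of 3.12 and 3.28, stood at 0 and −0.07. Polr1b, the second subunit of the catalytic core, had 4.35, 6.75 and 6.45 in syngeneic, 5.08, 6.33 and 7.78 in allogeneic and 5.02, 7.07 and 7.40 in antibody arrays. By the brightest probe sets, it alone of these subunits was higher in all 3 numbers of the antibody culture (0.67, 0.31 and 0.95). Its syngeneic value in number 1 lay under the array's gene median. Of the 5 Polr1a and 2 Polr1c sets, 1 each was higher in all 3 numbers there, with mean signals of 7.71 and 7.89.

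Polr1c, which RNA polymerases I and III share, had 10.70, 9.67 and 10.33 in syngeneic, 11.46, 9.29 and 10.29 in allogeneic and 11.29, 9.98 and 10.29 in antibody arrays. Number 3 was nearly level across the cultures. Its differences were 0.29 ± 0.57 in antibody and 0.11 ± 0.57 in allogeneic culture. By their brightest probe sets, none of the 3 subunits was higher in all numbers of the allogeneic culture, and all 3 were lower than syngeneic in number 2 there. Another Polr1a set, with a mean signal of 7.71, was higher in all 3 numbers there, and no other set of Polr1a or Polr1c was.

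The 4 small subunit factors had medians of 0.54 in antibody and 0.57 in allogeneic culture. Utp20, a component of the processome that cuts the small subunit RNA out of its precursor, had 7.29, 7.88 and 8.41 in syngeneic, 7.60, 8.20 and 9.30 in allogeneic and 7.63, 9.0 and 9.89 in antibody arrays. It was higher in all 3 numbers of both cultures, by 0.98 ± 0.70 (antibody) and 0.51 ± 0.70 (allogeneic). Its promoter window is among the 5 printed with an E-box. Wdr43, another processome protein, had 9.67, 9.67 and 10.06 in syngeneic, 9.89, 9.51 and 10.37 in allogeneic and 10.01, 10.25 and 10.36 in antibody arrays, a difference of 0.41 ± 0.42 in antibody and 0.13 ± 0.42 in allogeneic culture.

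Rrp12, which helps export the small subunit, had 5.74, 5.91 and 6.93 in syngeneic, 5.76, 5.91 and 8.84 in allogeneic and 5.76, 5.91 and 7.61 in antibody arrays. Its differences of 0.64 ± 0.88 (allogeneic) and 0.23 ± 0.88 (antibody) lay almost wholly in number 3, and its 3 signals in number 2 were exactly equal and under the gene median. Rrp9, which binds the U3 snoRNA, was higher in all 3 numbers of both cultures, by 0.67 ± 0.82 in antibody and 0.64 ± 0.82 in allogeneic culture, and in each the largest difference was in number 3 (1.01 and 1.52).

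The 11 large subunit factors had lower medians, 0.38 in antibody and 0.37 in allogeneic culture, and their genes ranged from even to uneven across the numbers. Rrp1b, a nucleolar protein of ribosomal RNA processing, had 8.80, 9.02 and 8.98 in syngeneic, 9.39, 9.20 and 9.69 in allogeneic and 9.22, 9.20 and 9.44 in antibody arrays. On its brightest probe set no stimulated array fell among the syngeneic ones, but on its other sets, with mean signals of 9.02 and 8.31, some did. Its differences were 0.35 ± 0.45 and 0.49 ± 0.45 in antibody and allogeneic culture, and all 3 of its probe sets had the same sign in both. Nip7, a factor that joins early large subunit particles, had 8.99, 8.33 and 9.72 in syngeneic, 10.11, 8.46 and 10.09 in allogeneic and 10.33, 9.08 and 10.01 in antibody arrays. It was higher in every number of both cultures, but its second probe set went the other way, with mean differences of −0.59 in antibody and −0.40 in allogeneic culture.

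Pes1, Bop1 and Wdr12 form the PeBoW complex, which acts in processing the large subunit RNA, and their values did not run in parallel. Pes1 had 9.77, 7.64 and 9.74 in syngeneic, 9.03, 7.43 and 10.39 in allogeneic and 9.13, 8.10 and 10.12 in antibody arrays. It was lower in number 1 of both stimulated cultures, by −0.74 and −0.64, and higher in number 3, by 0.66 and 0.39. Bop1 differed by 0.75 ± 0.91 in antibody and 0.57 ± 0.91 in allogeneic culture, mostly in number 3 (1.45 and 1.53), and Wdr12 by 0.36 ± 0.50 and 0.13 ± 0.50.

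Of the other large subunit genes, the RNA helicase Ddx56 was higher in all 3 numbers of both cultures (0.51 ± 0.94 in antibody, 0.88 ± 0.94 in allogeneic). Nop16 had the widest range between numbers in antibody culture, from 1.55 in number 1 to −0.47 in number 3. Rrs1, which helps bring the 5S ribosomal RNA into the subunit, was higher in all 3 numbers of the allogeneic culture (0.59, 0.38 and 0.13), and its antibody and syngeneic signals were exactly equal in number 3. The methyltransferases Nop2 and Ftsj3 differed by 0.38 ± 0.79 and 0.28 ± 0.62 in antibody and by 0.10 ± 0.79 and 0.24 ± 0.62 in allogeneic culture, and Ebna1bp2 by 0.54 ± 0.54 and 0.37 ± 0.54.

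The 7 nucleolar proteins with several functions had a median difference of 0.52 in antibody culture, where all 7 were higher in all 3 numbers, as were all 3 box C/D proteins. In allogeneic culture Ncl and Pa2g4 were, by their brightest probe sets, and the group median was 0.33. Gnl3 (nucleostemin), a nucleolar GTPase of proliferating cells, had 8.54, 8.92 and 9.36 in syngeneic, 9.48, 8.90 and 10.02 in allogeneic and 9.60, 9.24 and 10.06 in antibody arrays. Its differences were 0.69 ± 0.50 in antibody and 0.53 ± 0.50 in allogeneic culture, where number 2 was level (−0.02). Pa2g4, a growth-regulated protein found in pre-ribosomal particles, had 10.92, 9.91 and 11.36 in syngeneic, 11.86, 10.26 and 11.79 in allogeneic and 11.71, 10.53 and 11.58 in antibody arrays. All 5 of its probe sets had a higher mean in both stimulated cultures, and the brightest differed by 0.54 ± 0.52 (antibody) and 0.57 ± 0.52 (allogeneic). In number 2 of the allogeneic culture, every Pa2g4 set but the brightest was lower than in syngeneic culture.

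Nucleophosmin (Npm1), a chaperone of ribosome assembly, had the smallest antibody difference of this group by the brightest probe sets, 0.11 ± 0.40. Its signals were 13.41, 12.55 and 12.31 in syngeneic, 13.63, 12.55 and 12.40 in allogeneic and 13.62, 12.59 and 12.40 in antibody arrays. On this set the 3 cultures lay within 0.22 of each other in every number. The other Npm1 set, with a mean signal of 11.77, differed by 0.38 in antibody and 0.35 in allogeneic culture. Nucleolin (Ncl) differed by 0.13 ± 0.36 in antibody and 0.18 ± 0.36 in allogeneic culture, with the largest difference in number 1 (0.23 and 0.41). All 5 of its probe sets had a higher mean in both. In number 2 its sets with mean signals of 8.98 and 7.67 were lower in allogeneic than in syngeneic culture. They stood at 7.71 against 8.53 and at 7.78 against 8.03, and no other Ncl set was lower there. Ddx21, a nucleolar RNA helicase, had 10.77, 10.87 and 10.28 in syngeneic, 10.78, 10.41 and 10.43 in allogeneic and 10.78, 11.12 and 10.50 in antibody arrays. Its allogeneic signal stood apart in number 2, where it differed by −0.46 from syngeneic and by −0.71 from antibody culture. The snoRNP chaperone Nolc1 differed by 0.56 ± 0.64 in antibody and 0.45 ± 0.64 in allogeneic culture, and Mybbp1a, a regulator of ribosomal RNA synthesis, by 0.52 ± 0.60 and 0.33 ± 0.60.

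Over both comparisons with syngeneic culture, 11 genes were higher in all 3 numbers in each: Nop56, Nop58, Gar1, Nhp2, Rrp9, Utp20, Nip7, Ddx56, Rrp1b, Ncl and Pa2g4. A further 14 were so in the antibody culture and not in the allogeneic, 1 (Rrs1) in the allogeneic and not in the antibody, and 6 in neither. Of the 32 genes, 16 were higher in numbers 1 and 3 of the allogeneic culture and not in number 2. These counts rest on the brightest probe set of each gene. Among the 11 genes, Nop56, Nip7, Ncl and Pa2g4 each had another set that was lower in some number of the allogeneic culture. At the level of probe sets, 63 of 68 were higher and 4 lower in the antibody comparison, and 61 higher and 6 lower in the allogeneic one. Of the 22 genes with several probe sets, all sets shared a sign in 18 and 16 genes.

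Set directly against the antibody culture, the allogeneic culture had 7 of the 32 genes higher and 25 lower, where 60.1% of all genes were higher and 35% lower. The median difference was −0.16 (0.04 for all genes), and it was not even across the numbers: 0.00, −0.59 and 0.12. In number 2, 28 genes were lower in the allogeneic array, against 31.4% of all genes, and 1 (Ddx56) was higher, against 47% of all genes. In number 3, 21 were higher, against 43.1%. In all 3 numbers 5 genes were lower (2.58% of all genes), Polr1a, Nop56, Nop58, Utp20 and Gnl3. The furthest apart were Polr1a at −0.54 ± 0.66 and Rrp12 at 0.41 ± 0.88.

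No gene was called between the 2 stimulated cultures by limma: 0 of 18193 (0%), 24 of them and 0 of the 32 at an unadjusted p under 0.05, and 0 with the fixed or the random replicate block. With each array centred on its median, the split of the 32 was 2 higher and 30 lower, and the median of all genes moved to −0.11. Centring moves every gene of an array by the same amount. The distance of the 32 genes from the median of all genes, −0.20, therefore could not change. With quantile normalization that distance was −0.16. The direction rested on number 2: without allogeneic replicate 2 the median was 0.26, or 0.06 with the block kept, and without all arrays of number 2 it was 0.06. Without allogeneic replicate 3 it was −0.56, without antibody replicate 2 −0.35, and without antibody replicate 3 0.04.

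Markers of other cells moved with the cultures. All 8 measured macrophage markers were lower in both stimulated cultures than in syngeneic culture, with mean levels of 6.31 to 7.52 in syngeneic, 4.94 to 5.83 in allogeneic and 4.27 to 5.72 in antibody arrays. Of the 8, 3 lay under the array's gene median in syngeneic, 4 to 7 in allogeneic and 6 in antibody arrays. The 10 dendritic cell markers ran from 8.42 to 10.05, 8.25 to 9.94 and 8.03 to 8.13 in the same order. T cell markers had a median difference of 0.28 in antibody against syngeneic culture (8 of 9 higher), with −0.07, 0.78 and 0.25 in numbers 1, 2 and 3, and 0.02 in allogeneic culture. In number 2 all 9 T cell markers were lower in the allogeneic than in the antibody array, as 28 of the ribosome genes were. The 5 stromal markers were high in number 2 alone, with means of 10.49, 8.72 and 8.29 in syngeneic, allogeneic and antibody arrays, against 4.04 to 4.43 on the other arrays. B cell markers ran from 7.07 to 8.42, 6.61 to 8.31 and 6.39 to 9.04 in the 3 cultures, and granulocyte markers from 4.77 to 6.17, 4.69 to 6.30 and 4.27 to 5.33. The 3 erythroid markers measured ran from 3.70 to 5.47, 4.20 to 5.62 and 3.81 to 5.56. The part of these markers in the ribosome gene differences was not tested.

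Other genes of the same pathway, taken from lists chosen by function, leaned the same way on average with smaller median differences. Of 135 measured genes of polymerase I transcription, subunit assembly, snoRNP assembly and the RNA exosome (140 listed), 117 were higher in antibody and 98 in allogeneic culture. The medians were 0.29 and 0.19, and 47 and 30 were higher in all 3 numbers. Among all genes, here and for each list below, 48.5% were higher in antibody and 56% in allogeneic culture. In all 3 numbers 7.8% and 7.29% were. The lean was absent in number 2 of the allogeneic culture. There 52 of the 135 were higher and 70 lower, where 49.7% and 32.4% of all genes were. None was called by limma in either direction, with or without a block. The other small subunit factors (47 measured) had 44 and 30 higher, with medians of 0.34 and 0.17. Utp4, a processome protein, differed by 1.21 ± 0.84 in antibody culture, Imp4, a U3 snoRNP protein, by 0.71 ± 0.51, and Bysl, which acts late in small subunit assembly, by 1.08 ± 0.69 in allogeneic culture. Lower means were found for 3 of the 47 in antibody and 17 in allogeneic culture. Utp3 stood at −0.41 ± 0.42 and −0.55 ± 0.42, and Utp23, named after its values were seen, was the lowest of the list in both, at −0.90 ± 0.78 and −0.92 ± 0.78. Dcaf13 and Wdr36, both processome proteins, were the furthest below the antibody culture in allogeneic culture, at −0.78 ± 0.61 and −0.82 ± 0.78, with −1.86 and −1.91 in number 2.

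The other large subunit factors (49 measured) had 41 and 38 higher, with medians of 0.28 and 0.19. Nol9, a polynucleotide kinase of ribosomal RNA processing, differed by 0.91 ± 0.59 in antibody culture and Rsl1d1 by 0.70 ± 0.43, each higher in all 3 numbers. Mak16 and Ccdc86 differed by 0.57 ± 0.49 and 0.85 ± 0.93 in allogeneic culture, and Brix1 by 0.52 ± 0.46 in antibody culture. Among 15 polymerase I factors 12 and 10 were higher (medians 0.22 and 0.17), among them Twistnb, a polymerase I subunit, at 0.53 ± 0.46 and 0.46 ± 0.46. The RNA exosome, which trims ribosomal RNA precursors, had 13 of 14 genes higher in each culture (medians 0.39 and 0.25). Exosc2 was at 0.89 ± 0.73 and Exosc1 at 0.67 ± 0.61 in antibody culture, and Mphosph6 at 0.74 ± 0.75 in allogeneic culture.

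The snoRNP assembly factors were less one-sided than the snoRNP proteins themselves, with 7 of 10 higher in each culture and medians of 0.08 and 0.20; the difference between the lists was not tested. Ruvbl1 and Ruvbl2, the paired ATPases of this assembly, stood at 0.90 ± 0.80 and 0.81 ± 1.04 in antibody culture. In number 2 their allogeneic signals were −1.96 and −2.16 relative to antibody. Znhit3 differed by 0.00 ± 0.67 in antibody and 0.43 ± 0.67 in allogeneic culture.

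**Figure D4:**
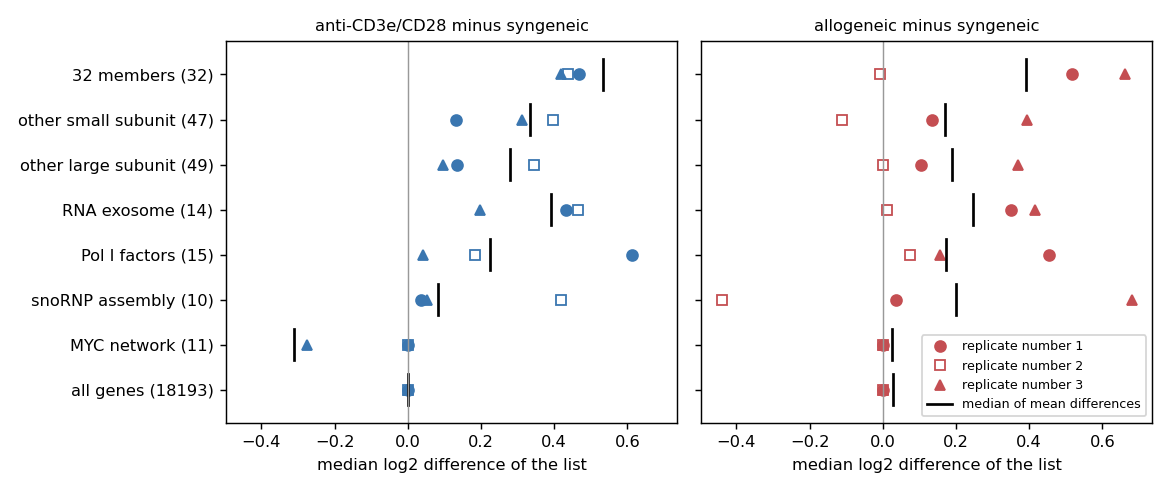
Median log2 difference against syngeneic culture of the 32 genes, 6 pathway lists (genes measured in brackets) and all genes, in antibody (left) and allogeneic (right) culture; symbols give the median within each replicate number and black bars the median of the mean differences. The 32 genes have medians of 0.53 and 0.39, the other pathway lists between 0.08 and 0.39, and the MYC network −0.31 and 0.03.

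Myc itself had 9.16, 9.96 and 11.11 in syngeneic, 9.98, 9.86 and 12.18 in allogeneic and 9.98, 10.81 and 12.15 in antibody arrays. Antibody was above syngeneic in every number (0.82, 0.85 and 1.03), and allogeneic was above it in numbers 1 and 3 (0.82 and 1.06) but not in number 2 (−0.10). The mean differences were 0.90 ± 0.72 and 0.59 ± 0.72. The MYC network as a list of 11 genes had 4 higher in antibody and 6 in allogeneic culture. Mxd1, which opposes MYC at shared sites, differed by −1.36 ± 0.75 in antibody culture, with 0.12, −1.02 and −3.18 in the 3 numbers, and by 0.06 ± 0.75 in allogeneic culture. Mga, another MAX partner, was at −0.63 ± 0.54 and −0.54 ± 0.54, Mxd4 at −0.37 ± 0.62 and −0.52 ± 0.62, and Max, the common partner, at 0.07 ± 0.62 and 0.36 ± 0.62. Of the 5 genes with an E-box in the printed windows, Utp20 was higher in all 3 numbers of both cultures, Nop2, Mybbp1a and Wdr43 in the antibody culture alone, and Pes1 in neither.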

How the data were processed

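The authors deposited log2 signals per probe set for 9 Affymetrix arrays, made with RMA per the submitters' processing notes; the version is not given in the sources used here. Of 45101 probe sets, 64 controls, 932 of several genes and 9160 with no listed gene were left out. The other 34945 gave 18193 genes, each read by its brightest probe set. For 34741 probe sets the gene ID was in a mouse gene table that updated symbols. Values were used as deposited. The number of arrays limits the precision.

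The culture differences come from a limma fit (version 3.58.1, R 4.3.3) of a mean per culture to all 9 arrays with an intensity trend. SEs are from that fit; p-values were adjusted by Benjamini-Hochberg over the 18193 genes, and 0.05 was the threshold. The test was checked on simulated data. Replicate numbers pair the arrays: deviations from culture means correlated at 0.811 to 0.921 in all 9 same-number pairs. The members and lists were chosen with earlier results of these data known, so lists are described and not tested. Members given on every array are the 6 with the smallest p in each comparison and the largest and smallest antibody difference of each role group, with Fbl added after its values were seen; pathway genes are the 2 with the smallest p per list and comparison, and Myc, of which only some are printed. Alternatives were the replicate block (fixed or random), quantile or median scaling, a filter at the 40th percentile, other variance priors, other probe set choices and left-out arrays.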

Additional observations from a re-analysis of the deposited data

How the results depend on the processing

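The replicate number as a fixed replicate block called 0 genes in all 3 comparisons, as the fit without it did, and kept each difference. As a random block the number called 1 gene in allogeneic against syngeneic culture and 30 in antibody against syngeneic culture, of which 1 (Nop58) was among the 32; it changed no other call of the 32. With arrays centred on their medians 1 gene was called in each of these comparisons. The antibody median of 0.53 became 0.57 with quantile normalization, 0.65 with centred arrays and 0.51 with the mean of all probe sets, and no antibody sign among the 32 changed in the 10 settings that kept all arrays. In those settings 2 signs changed in allogeneic against syngeneic culture (Polr1a and Pes1) and 6 in allogeneic against antibody culture. There, centred arrays left 2 genes higher. Centring moved every difference in that comparison by the same amount, with the median of all genes going from 0.04 to −0.11. Why the array medians differed, and the cause of the shifts in other settings, was not tested.

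With single arrays left out, the allogeneic median against syngeneic culture ranged from −0.062 to 0.74, with 15 to 32 genes higher. The antibody median ranged from 0.32 to 0.85. The allogeneic median against antibody culture ranged from −0.56 to 0.26, with 4 to 26 genes higher. Without the block, 20 of the 32 genes changed sign in allogeneic against syngeneic culture when some array was left out, 15 in antibody against syngeneic and 28 in allogeneic against antibody culture; with the block kept, 8, 2 and 21 did. Among these, in antibody against syngeneic culture Polr1b ranged from −0.11 to 1.38, Polr1c from −0.092 to 0.56, Rrp12 from −0.36 to 0.60, Dkc1 from −0.11 to 0.85, Pes1 from −0.64 to 0.58 and Npm1 from −0.26 to 0.44. In allogeneic against antibody culture Utp20 ranged from −1.08 to 0.052, Polr1a from −1.01 to 0.030 and Rrp12 from −0.59 to 1.00. Leaving out an array without the block unbalances the replicate numbers. Leave-one-out with the replicate block, an alternative chosen after seeing the data, gave medians of 0.25 to 0.61, 0.38 to 0.62 and −0.29 to 0.06 in the 3 comparisons.

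With 3 arrays per culture, the median SE of a difference over the 32 genes was 0.61, or 0.23 with the block, against median differences of 0.53 and 0.39 from syngeneic culture. The arrays hold no read depth, and 4 of the 32 genes had a signal at or under the gene median on some array.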
